A study of Rattus norvegicus with 84 samples.

Results

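The cytosolic ribosomal proteins are described here across kidney, liver and gastrocnemius muscle of young rats, aged rats and aged rats given RAD001. The set was chosen by gene symbol alone: symbols that start with Rpl or Rps followed by a number, with an optional a, x, l or second number, together with Rplp0, Rplp1, Rplp2 and Rpsa. Of the 17502 loci in the tables, 86 matched. For the 6 symbols that occur at more than 1 locus (Rpl7a, Rpl8, Rplp2, Rps19, Rps6 and Rps9) the locus with the highest mean was kept, which left 80 members. They comprise 42 proteins of the large subunit, 31 of the small subunit, 3 of the acidic stalk and 4 paralogs of other members (Rpl3l, Rpl22l1, Rpl39l and Rps27l).

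The 84 RNA libraries came from male Sprague Dawley rats, which are outbred. Per tissue there were 10 libraries of 6-month rats on vehicle (young), 10 of 24-month rats on vehicle (aged) and 8 of 24-month rats on RAD001 (RAD001). RAD001 is everolimus, an inhibitor of mTORC1, and was given by mouth in 7 doses over 6 weeks, 1 dose a week with vehicle on the other days, from 22.5 months of age. The vehicle, a microemulsion pre-concentrate in water with methylcellulose, was given to both other groups too, from 4.5 months in the young group, so no group was untreated. The labels number the libraries within a group and do not say that each came from a separate rat. The spread behind every p-value is therefore that between libraries, which may be technical.

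A cytosolic ribosome is built from a small subunit, which reads the mRNA, and a large subunit, which joins amino acids. The acidic stalk of the large subunit, made of Rplp0, Rplp1 and Rplp2, recruits elongation factors. mRNAs of ribosomal proteins begin with a C followed by a run of C and T (the 5′ terminal oligopyrimidine, or TOP, tract), through which mTORC1 controls their translation. That control acts on how often an mRNA is translated. The values here are mRNA levels and do not measure translation.

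The start regions of members whose levels are described below are shown because the TOP tract lies there. Each runs from 20 bases before the annotated transcription start through the 30th base of the transcript, 5′ to 3′ on the strand of the gene, from RefSeq on build GRCr8. Capitals mark an unbroken run of at least 5 C or T that includes the annotated first base. The paralogs Rpl3l, Rpl22l1 and Rps27l have no such run at their annotated start, whereas Rpl3, Rpl22 and Rps27 do.
Rpl3, chr7:113507961-113508010, minus strand: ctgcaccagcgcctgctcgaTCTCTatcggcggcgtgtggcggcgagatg
Rpl3l, chr10:14258426-14258475, plus strand: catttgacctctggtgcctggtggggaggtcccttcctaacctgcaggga
Rpl22, chr5:168117941-168117990, plus strand: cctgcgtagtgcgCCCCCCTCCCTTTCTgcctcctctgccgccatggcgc
Rpl22l1, chr2:113683176-113683225, plus strand: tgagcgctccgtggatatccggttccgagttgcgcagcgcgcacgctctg
Rps27, chr2:177964577-177964626, minus strand: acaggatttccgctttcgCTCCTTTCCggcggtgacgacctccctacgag
Rps27l, chr8:76443638-76443687, plus strand: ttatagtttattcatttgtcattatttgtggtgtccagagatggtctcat
Rplp1, chr8:71290843-71290892, minus strand: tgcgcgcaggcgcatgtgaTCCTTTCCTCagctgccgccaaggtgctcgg
Rpl14, chr8:129163600-129163649, plus strand: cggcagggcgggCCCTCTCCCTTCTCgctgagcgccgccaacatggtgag
Rps18, chr20:4933725-4933774, plus strand: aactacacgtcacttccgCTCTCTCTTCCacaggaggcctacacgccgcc
Rpl17, chr18:70856256-70856305, plus strand: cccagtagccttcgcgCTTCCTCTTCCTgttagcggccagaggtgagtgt

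Of the members, 64 were found in the same RefSeq table, under 65 entries, and 16 were not. A run of at least 5 C or T across the annotated start was present in 38 of the 65 entries (58.5%), against 12.0% of all 33469 entries. Only the strand of the gene was read. An annotated start can lie a few bases from the real start, so an entry with no run says only that these letters are not in that window.

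All levels are the deposited coverage, mean reads per base of a locus times a factor per library, scaled here between the libraries of a tissue. The coverage is per base, which allows for the length of a locus. How reads that match copies elsewhere in the genome were handled is not stated. Levels of different genes are therefore compared only as coverage. Relative sequencing depth, read from the common step of coverage times length at short loci, spanned 0.826 to 1.41 over the libraries. In liver its median was 0.960 in young, 0.985 in aged and 1.13 in RAD001 libraries, and in kidney it was 1.10, 1.13 and 0.969. In gastrocnemius the log2 scaling factors divided the libraries by number, at 0.02 to 0.34 in odd and -0.31 to 0.04 in even replicate numbers. Each group holds both. A term for odd or even number, added after seeing the data, moved no count of risen or fallen members by over 1.5 times. The 6 marker genes of proximal tubule, hepatocyte and skeletal myofibre were each above the filter in their own tissue. Summed hepatocyte markers were 3288 or more in every liver library and at most 8.12 in any kidney library, and summed myofibre markers were 3005 or more in every gastrocnemius library and at most 8.41 in any kidney library.

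With all 84 libraries on a common scale, Rpl41, the shortest ribosomal protein, had the highest coverage of the members in kidney (64.8 ± 4.91, SD, n = 28) and liver (60.2 ± 11.9). In gastrocnemius Rplp1, a stalk protein, was the highest at 83.7 ± 7.74, followed by Rpl41 at 57.6 ± 7.29. The SDs of Rplp1 in the other tissues, 43.9 ± 6.83 in kidney and 39.8 ± 4.09 in liver, leave no overlap with muscle: its range was 69.3 to 96.1 in gastrocnemius and 29.6 to 54.6 over the other tissues. Rpl39l, known in mouse and human as the testis form of Rpl39, was at most 0.204 in any library and passed the filter on low values in no tissue. Rpl3l, the form of Rpl3 found in striated muscle, stood at 21.9 ± 3.22 in gastrocnemius and at no more than 0.014 in any kidney or liver library. The locus of Rpl3l lies at chr10:13910496-13921040 and that of Rpl3 at chr7:121287082-121292461 (rn5, whole loci).

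Most members were somewhat higher in aged than in young tissue. Changes are differences of group means of log2(scaled coverage + 0.1), a scale on which changes of low genes are understated, and a member is said to have risen or fallen where limma's adjusted p (Benjamini-Hochberg over all loci of the tissue) was under 0.05. The filter asked for 0.1 or more in 8 or more libraries of the tissue and passed 78 members in kidney, 77 in liver and 78 in gastrocnemius. Rpl3l passed only in gastrocnemius and Rpl38 only in kidney. Rpl38 in kidney and Rpl37 in gastrocnemius were so near the filter that the median of a group lay under 0.1.

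In aged kidney 44 of the 78 members rose (56.4%), against 20.8% of all loci tested. No member fell, either at the adjusted p or at an unadjusted p under 0.05, while 22.2% of all loci tested fell. The median change of the members was 0.21, against 0.00 over all loci, and 75 of 78 were above 0. The large subunit had 24 of 42 risen and the small subunit 17 of 31. All 44 were among the 65 members with a mean of at least 1. None of the 13 with a mean under 1 rose.

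In 5 members, Rpl3, Rpl24 and Rps6 among them, every aged kidney library lay above every young library. Such a gap was seen in 1.75% of all loci tested, and the opposite gap, which no member showed, in 1.69%. Rpl3, near the catalytic centre of the large subunit, had a lowest, median and highest level of 18.7, 21.9 and 23.1 in young and 23.8, 26.6 and 32.0 in aged kidney. The change was 0.34 (SE 0.05, adjusted p = 1.4e-05), and the RAD001 libraries at 23.8, 25.4 and 29.1 also lay above the young range. Rps6, the ribosomal substrate of S6 kinase downstream of mTORC1, was at 24.7, 30.4 and 32.3 in young and 33.2, 36.7 and 41.3 in aged kidney (change 0.31, SE 0.05, adjusted p = 2.5e-05).

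Among the larger kidney rises, Rps20 of the small subunit went from 5.63, 6.13 and 6.77 to 6.32, 7.91 and 8.60 (change 0.33, SE 0.05, adjusted p = 5.5e-06). Only the lowest aged library overlapped the young ones. Rps24, another small subunit protein, was at 7.25, 8.76 and 10.3 in young and 8.68, 11.1 and 13.8 in aged kidney (change 0.35, SE 0.08, adjusted p = 0.0013). Rps9, near the mRNA entry, was at 9.78, 12.8 and 14.9 and then 11.3, 15.4 and 21.1 (change 0.36, SE 0.11, adjusted p = 0.0076). The ranges of Rps24 and Rps9 overlapped. Rpl30, of the large subunit, had the largest rise at 0.40 (SE 0.14, adjusted p = 0.019), but its young libraries were spread from 2.58 to 6.39 around a median of 5.15, and the aged ones ran from 5.62 to 7.06 around 6.30.

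The cell markers of kidney also moved with age. All 6 of 6 tested T cell markers, 6 of 6 macrophage markers and 6 of 6 fibroblast markers rose, and 5 of 6 proximal tubule markers fell. Their summed levels ran from 0.286 to 0.662 in young and 0.499 to 2.43 in aged libraries for T cells, from 3.39 to 4.90 and 5.23 to 15.1 for macrophages, from 10.5 to 14.9 and 14.6 to 28.2 for fibroblasts, and from 154 to 219 and 82.9 to 156 for proximal tubule. Of 2 proliferation markers tested 1 rose (summed levels of the list 0.244 to 0.461 in young and 0.302 to 0.970 in aged libraries). No B cell or plasma cell marker passed the filter in any tissue. The part of cell composition in the rise of the ribosomal proteins was not tested. In bulk tissue a change in the number of cells of a type and a change in RNA per cell cannot be told apart.

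Aged liver had fewer calls in the same direction. Of 77 members tested, 17 rose (22.1%), against 7.86% of all loci tested. As in kidney none fell, also at an unadjusted p under 0.05, against 8.71% of all loci called. The median change was 0.16, and 73 of 77 members were above 0. In no member were the aged libraries all above or all below the young ones, which 0.534% and 1.08% of all loci showed.

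Rpl10a, a large subunit protein, was at 0.771, 0.997 and 1.20 in young liver and at 1.11, 1.27 and 1.46 in aged liver (change 0.31, SE 0.07, adjusted p = 0.0022). Rps14, on the platform of the small subunit, went from 1.33, 1.57 and 1.86 to 1.58, 1.96 and 2.56 (change 0.30, SE 0.07, adjusted p = 0.0036). Rps6 was at 23.7, 25.4 and 29.3 in young and 26.8, 31.6 and 37.8 in aged liver (change 0.29, SE 0.06, adjusted p = 0.0011). Rpl31, at the rim of the exit tunnel, was at 2.31, 2.998 and 3.44 and then 3.22, 3.60 and 4.05 (change 0.28, SE 0.08, adjusted p = 0.012). In each of these 4 members the lower part of the aged range overlapped the upper part of the young range. Of the macrophage markers 4 of 7 rose in aged liver, with summed levels of 10.3 to 17.2 in young and 12.9 to 23.8 in aged libraries. Of the erythroid markers 2 of 4 rose (23.7 to 35.1 and 27.8 to 59.8), while 2 of 6 hepatocyte markers (4567 to 5343 and 3540 to 6966) and 2 of 4 fibroblast markers (3.52 to 4.04 and 2.08 to 3.51) fell. The part of these was not tested. The liver count depended on single libraries: it was 9 without aged library 10 and 11 without young library 7 or aged library 4 or 9.

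In aged gastrocnemius 43 of 78 members rose (55.1%) and 2 fell (2.56%). Over all loci tested 17.0% rose and 18.4% fell. The median change of the members was 0.17, and 74 were above 0. The large subunit had 23 of 41 risen and the small subunit 17 of 31. In 4 members, Rpl3, Rpl41 and Rps27l among them, every aged library lay above every young library, as was the case for 3.01% of all loci. No member had them all below, against 2.46% of all loci.

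Rpl3 showed the largest change of any member in the 3 tissues. Its level was 3.51, 3.83 and 4.27 in young, 5.62, 7.41 and 9.19 in aged and 4.77, 5.97 and 6.61 in RAD001 muscle. The age change was 0.87 (SE 0.08, adjusted p = 6.4e-10). Every library of both aged groups lay above every young library. Its muscle paralog Rpl3l was at 18.4, 20 and 21.8 in young, 13.1, 16.9 and 22.5 in aged and 15.3, 16.7 and 21.8 in RAD001 libraries, and fell with age (change -0.25, SE 0.08, adjusted p = 0.01). The aged range of Rpl3l enclosed the young range. On the values as deposited, where the median of all loci itself shifted by 0.12, its change was -0.096 (adjusted p = 0.43), and with the 45S pre-ribosomal RNA locus Rn45s as a covariate it was -0.19 (adjusted p = 0.2).

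**Figure D1:**
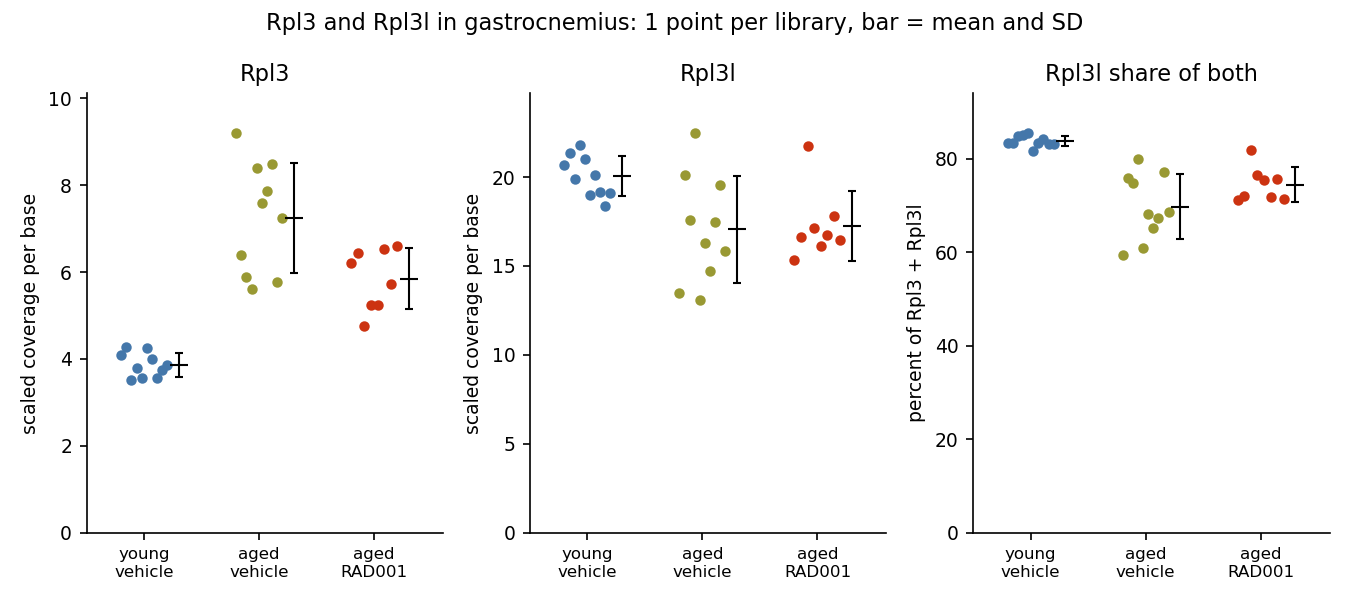
Scaled coverage per base of Rpl3 and Rpl3l, and Rpl3l as percent of both, in gastrocnemius. Points are libraries (10 young vehicle, 10 aged vehicle, 8 aged RAD001) and bars are means with SD. No aged or RAD001 library has Rpl3 as low as a young library, and the mean Rpl3l share goes from 83.8% in young to 69.8% in aged and 74.5% in RAD001 muscle.

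Rpl41 rose from 37.4, 40.7 and 43.8 in young to 47.4, 51.8 and 61.9 in aged muscle (change 0.36, SE 0.05, adjusted p = 9.2e-07). Rps27l, a paralog of Rps27 that is a p53 target in human cells, was at 3.55, 3.97 and 4.60 in young and 4.61, 4.97 and 6.51 in aged muscle (change 0.37, SE 0.06, adjusted p = 2.1e-05). Rps9 went from 8.79, 10.6 and 13.6 to 11.5, 13.5 and 18.0 (change 0.36, SE 0.10, adjusted p = 0.0044). Its ranges overlapped, and with Rn45s as a covariate its adjusted p was 0.2.

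The stalk proteins parted in muscle. Rplp0 rose from 39.8, 43.2 and 47.1 to 45.1, 51.1 and 57.2 (change 0.25, SE 0.04, adjusted p = 4e-05), and Rplp2 rose by 0.31. Rplp1, in contrast, had 66.0, 74.8 and 79.2 in young and 58.3, 68.6 and 77.0 in aged muscle (change -0.13, SE 0.05, adjusted p = 0.035). Its ranges overlapped almost whole. The fall of Rplp1 is sensitive to the libraries and the scale: it was lost when young library 3, 5 or 10 or aged library 1, 2, 4, 5 or 9 was left out (change -0.12 to -0.10, adjusted p = 0.0522 to 0.0812), and on the values as deposited the change was 0.028. Relative to the shift of 0.12 in all loci on that scale, Rplp1 was still lower. Beside these changes, 6 of 6 macrophage markers rose in aged muscle (summed levels 5.10 to 6.97 in young and 7.09 to 9.86 in aged libraries), 3 of 6 fibroblast markers fell and 4 of 6 myofibre markers fell (3989 to 4726 and 3005 to 4366). The deposited coverage of Rn45s was 334 ± 67.3 (SD, n = 10) in young and 247 ± 37.2 (n = 10) in aged muscle, and with it as a covariate the call of Rplp1 was lost as well (-0.13, adjusted p = 0.146 in limma). The part of these was not tested.

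**Figure D2:**
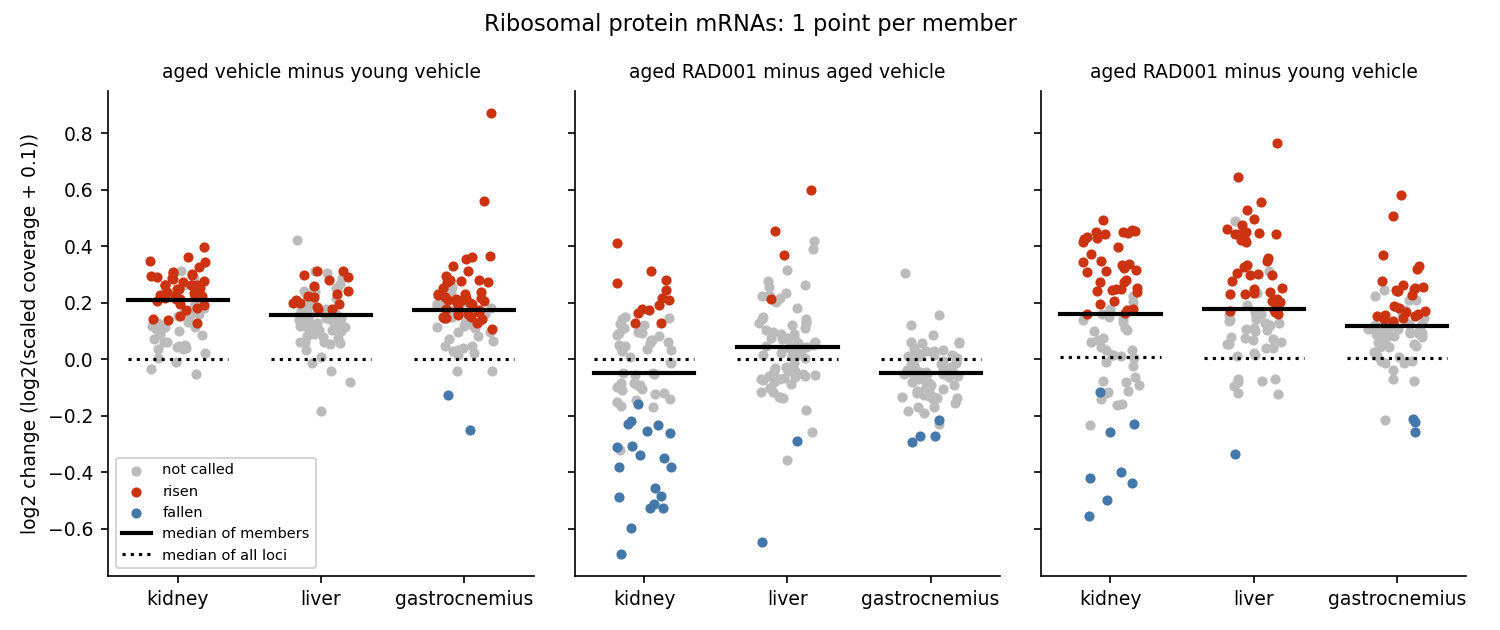
Log2 change of each ribosomal protein mRNA by tissue for the 3 comparisons, on the scale log2(scaled coverage + 0.1). Points are members, coloured by their call in limma. Solid lines are the members' medians and dotted lines the medians of all loci tested. With age most points lie above 0 in all tissues. Under RAD001 the kidney points reach from -0.69, in a member with a mean under 1, to 0.41.

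Of the 77 members tested in all tissues, 59 rose with age in at least 1 and 10 rose in all 3, among them Rpl3, Rpl5, Rpl6, Rpl15, Rpl23, Rpl23a, Rpl31, Rpl32 and Rps6. That is 76.6% and 13.0% of the members, against 32.9% and 1.11% of all 7647 loci tested in all tissues. Rpl5 binds the 5S ribosomal RNA together with Rpl11. Kidney and gastrocnemius shared 32 risen members, which is 72.7% of those risen in kidney and 74.4% of those risen in gastrocnemius. Over all these loci the shared ones were 27.2% of those risen in kidney and 29.0% of those risen in gastrocnemius. A joint model of all 84 libraries tested the difference between tissues itself. For the age change, 0 of 77 members differed between kidney and liver, with 7 at an unadjusted p under 0.05, against 10.5% of all loci higher and 12.0% lower in kidney. With same-numbered libraries of a group as a block 1 member differed. Between kidney and gastrocnemius 6 members differed, 3 in each direction, against 14.1% and 13.9% of all loci, and between liver and gastrocnemius 4 differed, 2 in each direction, against 14.0% and 11.8%. The age change of Rpl3 was smaller in kidney than in gastrocnemius by a log2 difference of -0.51 (SE 0.09) and smaller in liver by -0.68 (SE 0.09). That of Rplp1 was higher in kidney than in gastrocnemius by 0.33 (SE 0.08, adjusted p = 0.00064).

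RAD001 divided the members in kidney. Against aged vehicle, 13 of 78 rose (16.7%) and 20 fell (25.6%), while 18.3% of all loci rose and 19.1% fell, so neither share stands far from the background. The median change was -0.05. Those that rose included Rpl36, Rplp1, Rpl7a, Rpl14, Rpl35, Rps15a, Rplp0, Rpl4, Rps7, Rpsa, Rpl7 and Rpl11. Those that fell included Rpl38, Rps28, Rpl36a, Rps18, Rps21, Rps16, Rps19, Rpl39, Rps27a, Rpl13, Rps4x, Rps20, Rpl22, Rpl10a, Rps29, Rpl23, Rpl31, Rpl21 and Rpl29. The large subunit had 7 risen and 11 fallen of 42, the small subunit 4 risen and 9 fallen of 31. Of the 13 members with a mean under 1, 6 fell and 1 rose, and of the 65 with a higher mean 14 fell and 12 rose. Across the 78 members the change went with the log2 mean level with a Pearson r of 0.42 and a Spearman rho of 0.38, a description over members that share the same 28 libraries. A higher change at higher levels was not particular to the members. The median change of all loci was 0.00, and 0.077 where only loci at 1 or more in 8 libraries were kept.

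Rps18, in the head of the small subunit, was at 5.18, 6.05 and 7.05 in young, 5.38, 6.43 and 7.60 in aged and 3.79, 4.43 and 5.17 in RAD001 kidney. All RAD001 libraries lay below both vehicle groups, and the change was -0.51 (SE 0.07, adjusted p = 5.2e-06). In 2 members, Rps18 being one, the RAD001 libraries lay below every aged library, as for 1.87% of all loci.

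Rps16, also of the small subunit head, was at 2.15, 2.61 and 3.44 in aged and 1.51, 1.91 and 2.22 in RAD001 kidney (change -0.48, SE 0.07, adjusted p = 2.1e-05). Rps27a, made as a fusion of ubiquitin with a small subunit protein, went from 5.88, 7.08 and 8.41 to 4.71, 5.29 and 6.12 (change -0.38, SE 0.07, adjusted p = 0.00011). In Rps16 and Rps27a only the ends of the ranges overlapped. Rps20, which had risen with age, was at 5.77, 6.25 and 6.78 under RAD001 (change -0.31, SE 0.05, adjusted p = 4.7e-05), within 0.02 (SE 0.05) of the young group on the log2 scale. Because the age and RAD001 changes use the same aged vehicle libraries, opposite signs in them are not independent of each other.

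In the other direction, 3 members had every RAD001 library above every aged library, Rpl14, Rpl4 and Rpl7, as had 1.39% of all loci. Rpl14, of the large subunit, was at 17.9, 19.5 and 21.6 in young, 19.2, 21.5 and 24.0 in aged and 25.2, 26.0 and 27.3 in RAD001 kidney (change 0.27, SE 0.05, adjusted p = 9.4e-05). Rplp1 was at 48.1, 52.5 and 58.0, then 53.3, 58.9 and 70.3, then 67.3, 75.2 and 77.1 (RAD001 change 0.31, SE 0.05, adjusted p = 6.5e-05). Rplp0 rose by 0.22 with age and by 0.21 under RAD001. The third stalk protein, Rplp2, did not pass the test in either comparison (0.15 and -0.11, SE 0.08 and 0.09).

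Rpl36 had the largest rise at 0.41 (SE 0.08, adjusted p = 0.00041): 1.32, 1.60 and 1.90 in aged and 1.55, 2.34 and 2.48 in RAD001 kidney. Of its 8 RAD001 libraries 6 lay above every aged library and 2 lay inside the aged range. Rpl35, beside the exit tunnel, went from 19.3, 25.0 and 28.04 to 27.1, 29.4 and 30.4 (change 0.24, SE 0.06, adjusted p = 0.0018). Rpl11 lost its call when any of 6 libraries was left out, and Rpl39 when any of 9 was.

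**Figure D3:**
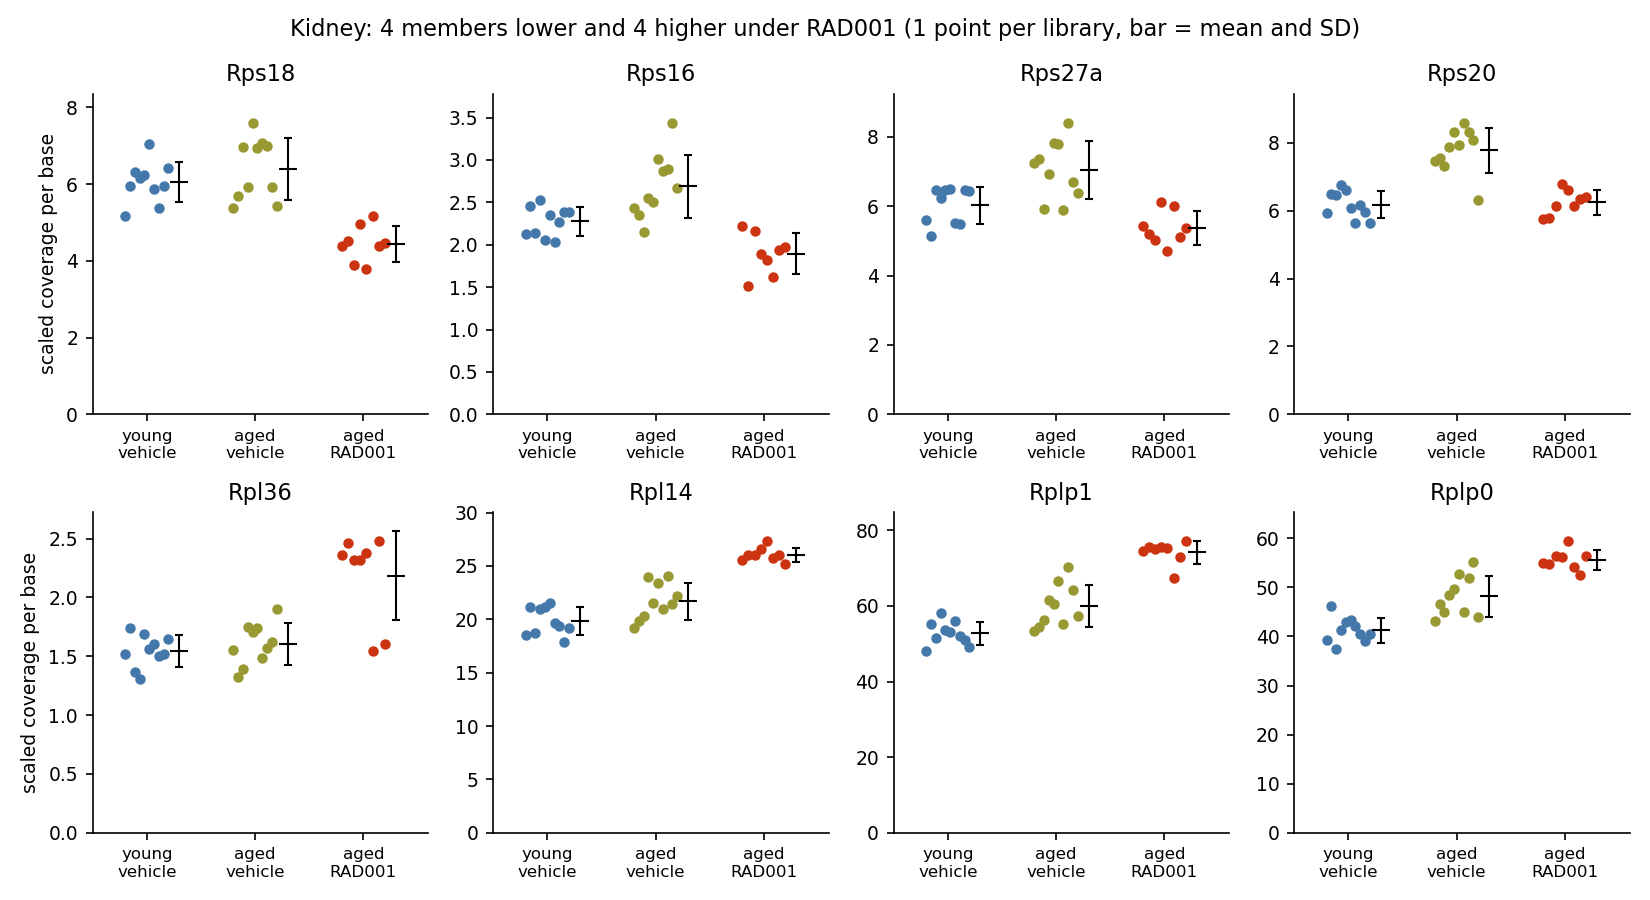
Scaled coverage per base of 8 ribosomal protein mRNAs in kidney. Points are libraries (10 young vehicle, 10 aged vehicle, 8 aged RAD001) and bars are means with SD. The upper 4 members fell under RAD001 and the lower 4 rose; RAD001 libraries do not overlap aged vehicle for Rps18 and Rpl14.

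Abundant non-coding RNA moved with the treatment in kidney. The deposited coverage of 7SL, the signal recognition particle's RNA, was 25407 ± 1817 (SD, n = 10) in young, 25258 ± 2573 (n = 10) in aged and 33651 ± 3931 (n = 8) in RAD001 libraries. That of Rn45s was 423 ± 45.3, 430 ± 67.2 and 232 ± 27.4. The Rn45s ranges of RAD001 (182 to 278) and aged libraries (353 to 544) did not overlap, and those of 7SL overlapped only in part. A fit with such a covariate cannot separate it from the treatment, and a call can be lost in it while the change stays. With 7SL as a covariate 0 members rose and 7 fell, and with Rn45s 6 rose and 6 fell. Among the members given above, with 7SL the calls of Rpl36 (0.42, adjusted p = 0.0673), Rplp1 (0.18, 0.188), Rpl14 (0.13, 0.27), Rpl35 (0.093, 0.561) and Rps27a (-0.33, 0.0818) were lost. With Rn45s those of Rpl36 (0.27, 0.321), Rps18 (-0.43, 0.0596), Rps20 (-0.27, 0.0998) and Rps16 (-0.31, 0.186) were lost. The split also moved with scaling: 5 rose and 20 fell on the values as deposited, and 7 rose and 27 fell under upper-quartile scaling. The kidney markers moved as well: 6 of 6 T cell, 6 of 6 macrophage and 5 of 6 fibroblast markers fell under RAD001 and 4 of 6 proximal tubule markers rose. Their summed levels in RAD001 libraries were 0.439 to 1.25, 4.83 to 7.66, 12.3 to 19.1 and 143 to 188. Of the erythroid markers 3 of 5 rose (28.3 to 88.6 in aged and 52.3 to 101.3 in RAD001 libraries). Both proliferation markers tested, 2 of 2, fell (summed levels of the list 0.302 to 0.970 in aged and 0.149 to 0.383 in RAD001 libraries). What part any of these has in the kidney changes was not tested.

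In liver 4 of 77 members rose (5.19%) and 2 fell (2.6%) under RAD001, against 7.62% and 8.13% of all loci. Leaving out 1 library moved the risen count between 2 and 9. The median change was 0.04. Beside this, 3 of 6 hepatocyte markers fell (3540 to 6966 in aged and 3288 to 5481 in RAD001 libraries) and 1 of 4 erythroid markers rose (27.8 to 59.8 and 38.2 to 86.6). The deposited coverage of Rn45s was 334 ± 75.5 (SD, n = 10) in aged and 417 ± 39.7 (n = 8) in RAD001 liver, and that of 7SL was 18795 ± 4581 and 22220 ± 917. Their part was not tested. Rpl22l1, the paralog of Rpl22, had the largest change. It was at 2.68, 3.64 and 4.60 in young, 2.96, 4.55 and 6.64 in aged and 2.37, 2.89 and 3.29 in RAD001 liver. The change was -0.65 (SE 0.12, adjusted p = 0.0012), and with 7SL or Rn45s as a covariate it was -0.50 and -0.46 (adjusted p = 0.00138 and 0.00944). Only the lower part of the aged range overlapped the RAD001 libraries. Rps24 fell from 7.98, 10.3 and 13.0 to 7.18, 8.15 and 9.67 (change -0.29, SE 0.09, adjusted p = 0.023).

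Rpl8, a large subunit protein at the catalytic centre, had low coverage in all tissues (means of 0.649 in liver, 0.564 in kidney and 0.707 in gastrocnemius). In liver it was the only member with no overlap: 0.318, 0.471 and 0.664 in aged and 0.695, 0.747 and 0.857 in RAD001 libraries (change 0.60, SE 0.09, adjusted p = 4e-04). Such a gap was seen in 0.412% of all loci and the opposite one in 0.256%. The symbol has another locus on chromosome 7, with a mean of 0.064 over all libraries. How reads that match both loci were handled is not stated. Rps2, near the mRNA entry, went from 6.79, 8.02 and 12.0 to 10.3, 11.2 and 12.9 (change 0.37, SE 0.11, adjusted p = 0.028). Rpl6 went from 5.60, 6.65 and 7.88 to 7.11, 7.65 and 9.04 (change 0.21, SE 0.07, adjusted p = 0.043), and Rpl7a rose by 0.45. The ranges of Rps2 and Rpl6 overlapped. The call of Rps2 was lost without aged library 4, 6, 7 or 8 or RAD001 library 3 or 8 (adjusted p = 0.0506 to 0.0568). That of Rpl6 was lost without aged library 2, 4, 6, 7, 8 or 9 or RAD001 library 3, 5, 6, 7 or 8 (adjusted p = 0.0562 to 0.0916). The calls of Rps2, Rpl6 and Rps24 were also lost with 7SL or Rn45s as a covariate.

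In gastrocnemius no member rose under RAD001, with 1 at an unadjusted p under 0.05 in limma, and 4 fell (5.13%), against 1.72% and 1.65% of all loci. The median change was -0.05, and 22 of 78 members were above 0. Rps27l was at 4.61, 4.97 and 6.51 in aged and 3.95, 4.17 and 5.61 in RAD001 muscle (change -0.27, SE 0.07, adjusted p = 0.019). Rpl3 changed by -0.29 (SE 0.08, adjusted p = 0.048). Rpl22l1 went from 2.98, 3.37 and 3.75 to 2.57, 2.89 and 3.38 (change -0.21, SE 0.06, adjusted p = 0.033). All 4 members that fell had overlapping ranges, and no member had its RAD001 libraries all above or all below the aged ones, as 0.147% and 0.102% of all loci had. On the values as deposited 0 fell, at adjusted p-values of 0.0914 to 0.179 for the 4.

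Of the muscle calls given here, that of Rps27l held with every library left out in turn. Rpl3 was lost without any of 20 of the 28 libraries (adjusted p = 0.0501 to 0.105). Rpl22l1 was lost without aged library 1, 7 or 9 or RAD001 library 1, 5, 6 or 7 (adjusted p = 0.0516 to 0.0834).

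The RAD001 change was compared between tissues in the same joint model. Kidney and liver differed in 15 of 77 (4 higher and 11 lower in kidney, against 15.1% and 11.8% of all loci), kidney and gastrocnemius in 17 (12 higher and 5 lower, against 11.8% and 10.4%), and liver and gastrocnemius in 9 (8 higher and 1 lower, against 3.84% and 4.56%). On the values as deposited these counts were 13, 10 and 1. Rps18 had a lower RAD001 change in kidney than in liver by -0.69 (SE 0.11) and than in gastrocnemius by -0.47 (SE 0.11, adjusted p = 0.0017). Rpl22l1 had a lower change in liver than in gastrocnemius by -0.44 (SE 0.13, adjusted p = 0.0277).

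Set against the young group, RAD001 tissue still had more ribosomal protein mRNA in many members. In kidney 36 of 78 were higher (46.2%) and 8 lower (10.3%), against 12.0% and 14.5% of all loci. With 7SL as a covariate 13 were higher and 4 lower, and with Rn45s 14 and 1. Both covariates moved with the treatment in kidney and cannot be separated from it here. In liver 38 of 77 were higher (49.4%) and 1, Rpl22l1, lower (1.3%), against 17.0% and 18.0%. In the same libraries 6 of 7 macrophage markers (10.3 to 17.2 in young and 17.4 to 25.1 in RAD001) and 4 of 4 erythroid markers (23.7 to 35.1 and 38.2 to 86.6) were higher, and 4 of 6 hepatocyte markers (4567 to 5343 and 3288 to 5481) and 2 of 4 fibroblast markers lower. In gastrocnemius 26 of 78 were higher (33.3%) and 3 lower (3.85%), against 17.9% and 18.6%. There 2 of 6 macrophage markers were higher and 3 of 6 fibroblast and 4 of 6 myofibre markers lower, and in kidney 1 of 6 macrophage markers was higher and 1 of 6 proximal tubule markers lower, with 1 fibroblast marker in each direction. Of 2 proliferation markers tested in kidney 1 was lower. The part of these markers was not tested. Every RAD001 library lay above every young library in 21 kidney members, 6 liver members and 2 gastrocnemius members, against 1.53%, 1.86% and 3.12% of all loci. Rps18 in kidney was the only member with every RAD001 library below every young library, a gap that 3.15% of all loci showed in kidney, 2.37% in liver and 3.49% in gastrocnemius. This comparison shares its libraries with the other 2. The summed level of the members was 957 ± 52.2 in young, 1096 ± 77.2 in aged and 1112 ± 37.8 in RAD001 kidney. It was 694 ± 31.2, 773 ± 67.5 and 794 ± 50.4 in liver and 801 ± 46.4, 899 ± 49.3 and 860 ± 54.9 in gastrocnemius (SD, n = 10, 10 and 8).

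Members were also counted by whether a TOP-like run was found at the annotated start. With age, 52.6% of the 38 with a run, 52.0% of the 25 without and 73.3% of the 15 not in the table rose in kidney. In gastrocnemius these shares were 55.3%, 48.0% and 66.7%, and in liver 15.8%, 25.0% (of 24) and 33.3%. Under RAD001 28.9%, 24.0% and 20% fell in kidney and 15.8%, 20% and 13.3% rose. Against young, 39.5%, 16% and 46.7% were higher in RAD001 gastrocnemius, 44.7%, 48.0% and 46.7% in kidney and 42.1%, 58.3% and 53.3% in liver. These are counts over members that share libraries and were not tested against each other. Of all loci, 20.8% rose with age in kidney, 17.0% in gastrocnemius and 7.86% in liver. Under RAD001 19.1% of all loci fell and 18.3% rose in kidney. Against young, 17.9% of all loci were higher in RAD001 gastrocnemius, 12.0% in kidney and 17.0% in liver.

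The ratio of a paralog to its parent within a library does not depend on scaling, and was tested by exact permutation, two-sided, with Benjamini-Hochberg adjustment over 21 tests. In gastrocnemius Rpl3l made up 83.8% ± 1.16 (SD, n = 10) of the Rpl3 and Rpl3l coverage in young, 69.8% ± 6.98 (n = 10) in aged and 74.5% ± 3.72 (n = 8) in RAD001 libraries. The log2 ratio changed by -1.12 with age (SE 0.157, exact p = 1.08e-05, the smallest these groups can give, adjusted p = 0.000227). The highest aged share, 80.0%, was below the lowest young share, 81.7%. RAD001 against aged gave 0.32 (SE 0.19, exact permutation, adjusted p = 0.193), and RAD001 against young gave -0.80 (SE 0.11, adjusted p = 0.00032).

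Rpl22l1 took 46.6% ± 4.25 of the Rpl22 and Rpl22l1 coverage in young, 49.5% ± 3.35 in aged and 40.5% ± 2.22 in RAD001 liver. The RAD001 change of the log2 ratio was -0.51 (SE 0.08, exact permutation, adjusted p = 0.00032). The liver shares overlapped in only a small part: RAD001 ranged from 36.8% to 43.7% and aged from 43.5% to 57.0%. In gastrocnemius the shares were 49.2% ± 3.29, 45.7% ± 3.07 and 41.9% ± 2.91, with a RAD001 change of -0.22 (SE 0.08, exact permutation, adjusted p = 0.0433). In kidney they were 54.8% ± 3.01, 52.5% ± 2.84 and 56.4% ± 4.16, with a change of 0.22 (SE 0.10, exact permutation, adjusted p = 0.07). Leaving out 1 library moved that adjusted p between 0.0132 and 0.16, and the gastrocnemius one between 0.0103 and 0.0769.

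Rps27l took 16.6% ± 1.26 of the Rps27 and Rps27l coverage in young, 18.8% ± 1.71 in aged and 16.2% ± 1.49 in RAD001 gastrocnemius. Its log2 ratio changed by 0.20 with age (SE 0.06) and by -0.25 under RAD001 (SE 0.07), with an adjusted p of 0.0117 in each exact permutation test. The ranges of all groups overlapped. In kidney the shares were between 13.2% and 13.8% and in liver between 28.7% and 30.6%, with no call in either tissue.

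**Figure D4:**
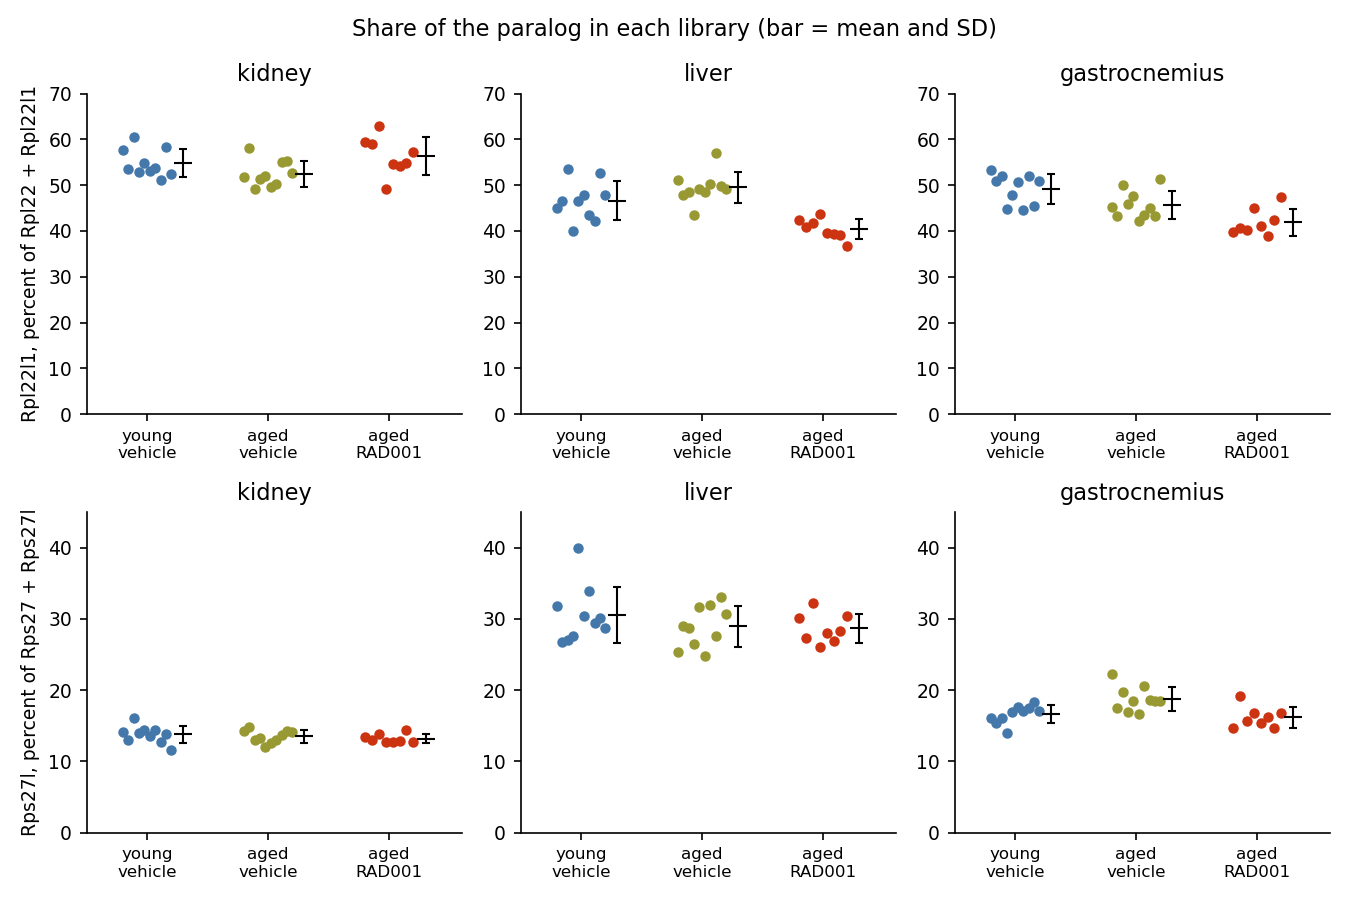
Share of Rpl22l1 in Rpl22 plus Rpl22l1 (upper panels) and of Rps27l in Rps27 plus Rps27l (lower panels), in percent of the scaled coverage, by tissue. Points are libraries (10 young vehicle, 10 aged vehicle, 8 aged RAD001) and bars are means with SD. The mean Rpl22l1 share in liver is 49.5% in aged vehicle and 40.5% in RAD001 libraries.

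Rpl17 and Rpl30, chosen after their values were seen, varied between libraries of a group. Rpl17, at the exit tunnel, followed the replicate number. It had a residual SD of 0.581 in kidney, 0.626 in liver and 0.577 in gastrocnemius on the log2 scale, against member medians of 0.140, 0.175 and 0.136. In kidney, young libraries 7 and 9 were at 7.78 to 7.81 and the others at 2.11 to 2.81. Aged libraries 1, 8 and 10 were at 5.62 to 6.90 and the others at 2.71 to 4.03, and RAD001 libraries 3 and 7 at 5.87 to 8.26 and the others at 2.45 to 3.33. The same numbers were the high ones in liver and in gastrocnemius. There the young values were 4.85 to 5.04 against 1.21 to 1.72 in liver and 5.29 to 5.74 against 1.48 to 2.65 in gastrocnemius.

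Rpl30 was low in RAD001 libraries 2 and 7 in each tissue: 2.98 to 3.22 against 5.17 to 6.78 in kidney, 3.12 to 3.14 against 4.53 to 7.14 in liver and 2.76 to 2.96 against 4.40 to 6.10 in gastrocnemius. In young liver and gastrocnemius libraries 3 and 10 were the low ones (2.74 to 3.07 and 3.09 to 3.39), and in young kidney library 3 alone lay below the largest gap (2.58). In aged libraries Rpl30 did not divide alike: 1 and 9 were low in kidney, 8 was high in liver and 8 was low in gastrocnemius. Rps9 divided the RAD001 libraries in the same way in all tissues too, with libraries 3 and 7 low. A division at the largest gap into the same numbers in all tissues was seen in 1 of 77 members in young, 1 in aged and 3 in RAD001 libraries, against 0.288%, 0.588% and 0.353% of 7647 loci. The labels do not say that a number marks the same rat in the 3 tissues.

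**Figure D5:**
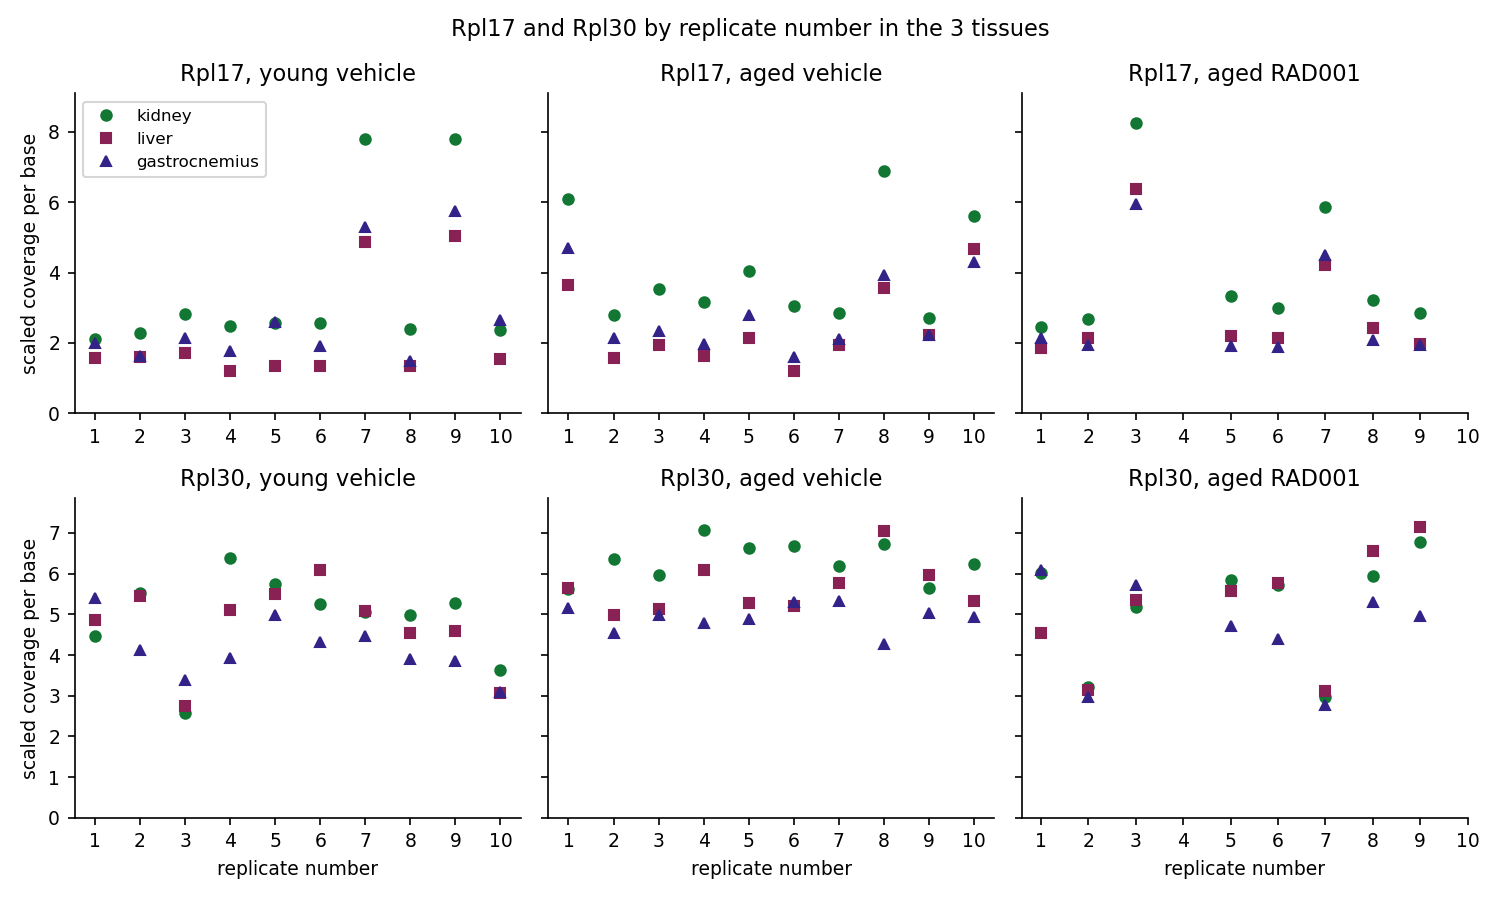
Scaled coverage per base of Rpl17 (upper panels) and Rpl30 (lower panels) by replicate number for the 3 groups, with a colour for each tissue. Each point is a library. Rpl17 is high in the same numbers in all tissues (7 and 9 in young, 1, 8 and 10 in aged, 3 and 7 in RAD001), and Rpl30 is low in RAD001 numbers 2 and 7.

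Reads of ribosomal proteins can also match processed copies elsewhere in the genome. By name alone, RefSeq lists 1082 entries called after 77 members, with a median of 14 and at most 36 a member. Whether these entries are processed copies was not checked, and names of working paralogs may be among them. The RefSeq build also differs from the build to which the reads were aligned. The handling of reads that match copies is not stated in the sources used here. Across the 80 members the number of such entries and the log2 mean level had a Pearson r of 0.01 and a Spearman rho of -0.03, with the libraries shared by all points. The effect of copies on the levels was not tested.

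Other components of the translation machinery were counted for comparison. Of the 3 ribosomal proteins tested outside the symbol rule, 1 rose with age in kidney, 1 in liver and 2 in gastrocnemius, and 0 fell. Of all loci 20.8%, 7.86% and 17.0% rose. Under RAD001 2 rose and 1 fell in kidney, against 18.3% and 19.1% of all loci, and 0 were called in the other tissues. Gnb2l1 (also named Rack1, on the small subunit) rose with age in kidney by 0.26 (SE 0.05, adjusted p = 8.8e-05) and in liver by 0.19 (SE 0.06). It fell in kidney under RAD001 by 0.13 (SE 0.05, adjusted p = 0.0495). The ubiquitin-like fusion Fau rose in kidney under RAD001 by 0.27 (SE 0.07, adjusted p = 0.0038). Of 20 other TOP mRNAs, 8 rose and 3 fell with age in kidney, where 20.8% and 22.2% of all loci did. In liver 2 rose and 0 fell, against 7.86% and 8.71%, and in gastrocnemius 9 and 1, against 17.0% and 18.4%. Eef1a1, which brings aminoacyl-tRNA to the ribosome, had the largest of these changes, from a mean of 6.16 in young to 13.6 in aged muscle (change 1.11, SE 0.09, adjusted p = 2.9e-11). Under RAD001 5 rose and 4 fell in kidney (18.3% and 19.1% of all loci), 4 and 4 in liver (7.62% and 8.13%) and 2 and 0 in gastrocnemius (1.72% and 1.65%). The same shares of all loci apply to the lists that follow.

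Mitochondrial ribosomal proteins form a separate ribosome. Of 69 tested, 0 rose and 27 fell with age in kidney, 0 and 3 in liver, and 2 and 25 in gastrocnemius. Their median changes were -0.11, 0.00 and -0.11. Under RAD001, 27 rose and 2 fell in kidney, 2 and 11 in liver and 0 and 3 in gastrocnemius. Of 30 ribosome assembly factors 3 rose and 1 fell with age in kidney and 15 and 0 in gastrocnemius, where Polr1a, the largest subunit of RNA polymerase I, rose by 0.37 (SE 0.07, adjusted p = 0.00017). In liver 6 of 29 rose and none fell. Under RAD001 11 of the 30 fell in kidney and 0 rose. Nucleolin (Ncl), which binds nascent ribosomal RNA, fell the most, by 0.90 (SE 0.07, adjusted p = 3.8e-10), and Ubtf, a factor of RNA polymerase I, fell by 0.38 (SE 0.05, adjusted p = 2.1e-06). In liver 1 rose and 3 fell, Ncl by 0.37 (SE 0.08, adjusted p = 0.006), and in gastrocnemius 2 rose and 2 fell.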

How the data were processed

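Per the labels, total RNA of snap-frozen kidney, liver and gastrocnemius was sequenced in 84 libraries. Reads were aligned with STAR 2.4.5a to rn5, per the submitters' processing notes; the sources used here do not name the counting tool. Deposited was a coverage signal: the authors' mean reads per base of a locus, times a factor that differs by library. The number of reads is unknown. Relative depth was read from low values at short loci, as the common step of coverage times locus length. These products were whole multiples of the step within 0.0001, with the length rounded and free to shift slightly.

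Within a tissue, loci at 0.1 or more in 8 or more libraries were brought to a common scale by a trimmed mean of log ratios (30% trimmed per side). log2(value + 0.1) was fitted in limma 3.58.1 (R 4.3.3; lmFit, eBayes with trend; 1 mean per group, 25 residual degrees of freedom). Python 3.11.15, NumPy 2.4.6, pandas 2.3.3, SciPy 1.17.1 and matplotlib 3.10.9 served for the rest. The fit was tested on simulated data. Members with full values were called members with a mean of 1 or more and the largest changes, the smallest p, and preset paralogs, stalk and control members; Rpl8, Rpl17, Rpl30 splits and other names were chosen after their values were seen. Not every member that meets the rule is reported here. The members and lists were chosen with earlier results of these data known.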

Additional observations from a re-analysis of the deposited data

Results flagged for a closer look

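A library was set apart where its gap to the nearest other library of its group, divided by the range of the group, passed Dixon's 95% critical value. This was the case in 11 of 318 groups tested (3.46%), and chance alone gives about 1 in 20. In kidney, RAD001 library 5 had Rpl22 at 5.71 against 3.21 to 4.29 in the others (gap over range 0.569) and Rpl6 at 12.0 against 9.27 to 10.2 (0.648). RAD001 library 7 had the lowest kidney Rplp1, 67.3 against 72.9 to 77.1 (0.574). Young kidney library 1 was low in Rpl3, at 18.7 against 21.2 to 23.1 (0.572), and its members deviated from the group mean by a median of -0.21 on the log2 scale, against -0.056 to 0.12 in the others (0.468).

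In liver, RAD001 library 9 was high in Rpl22, at 5.61 against 3.67 to 4.52 (0.559), and RAD001 library 8 in Rplp2, at 2.11 against 1.34 to 1.65 (0.599). In gastrocnemius, RAD001 library 3 was high in Rpl3l, at 21.8 against 15.3 to 17.8 (0.615), RAD001 library 1 in Rpl8, at 0.933 against 0.467 to 0.642 (0.6248), and RAD001 library 2 in Rps27l, at 5.61 against 3.95 to 4.38 (0.742). Young gastrocnemius library 8 was low in Rplp1, at 66.0 against 72.9 to 79.2 (0.517). Without that library the fall of Rplp1 with age kept its call.

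Changes that differed between tissues, by the interaction term of the joint limma fit with an adjusted p under 0.05, are given as log2 differences. The RAD001 change in kidney minus that in liver was -0.70 for Rpl8, -0.69 for Rps18 and -0.48 for Rps16, and 0.57 for Rpl22l1, 0.45 for Rpl36 and 0.37 for Rplp1. In kidney minus gastrocnemius it was -0.47 for Rps18 and -0.34 for Rps16, and 0.40 for Rplp1, 0.39 for Rpl14, 0.39 for Rpl36 and 0.32 for Rps27l. In liver minus gastrocnemius it was 0.54 for Rps2, 0.49 for Rpl8, 0.33 for Rpl6, 0.32 for Rps27l and -0.44 for Rpl22l1. The age change in kidney minus gastrocnemius was -0.51 for Rpl3 and 0.33 for Rplp1, and in liver minus gastrocnemius it was -0.68 for Rpl3, -0.30 for Rps27l and 0.24 for Rplp1. These members were listed because they have large changes in at least 1 tissue.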

How the results depend on the processing

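Counts of calls that moved by over 1.5 times are given here in the order of the comparisons. The cause was not tested. In kidney 7SL and Rn45s moved with RAD001, so a fit with either covariate cannot separate it from the treatment. The alternatives odd or even number and upper quartile for differences between tissues were chosen after seeing the data. For RAD001 against aged in kidney, 13 members rose, and 7 did with upper-quartile scaling, 5 as deposited, 0 with 7SL, 6 with Rn45s and 7 at an adjusted p under 0.01; 20 fell, and 7 did with 7SL and 6 with Rn45s. For RAD001 against young in kidney, 36 rose, and 13 with 7SL and 14 with Rn45s; 8 fell, and 5 as deposited, 4 with a minimum of 1, 4 with 7SL, 1 with Rn45s and 5 under 0.01. In liver 17 rose with age, and 30 as deposited and 4 under 0.01. Under RAD001 4 rose, and 9 with upper quartile, 2 with 7SL, 2 with Rn45s, 7 with quality weights and 2 under 0.01; 2 fell, and 1 with 7SL, Rn45s or 0.01. Against young 38 rose, and 24 with Rn45s or under 0.01; 1 fell, and 0 with 7SL, Rn45s or 0.01. In gastrocnemius 2 fell with age, and 0 as deposited, with Rn45s or under 0.01. Under RAD001 4 fell, and 0 as deposited or under 0.01, 2 with no filter and 1 with 7SL or Rn45s. Against young 26 rose, and 15 as deposited and 10 under 0.01; 3 fell, and 0 as deposited. Of the differences between tissues, RAD001 in kidney and gastrocnemius fell from 17 to 10 and in liver and gastrocnemius from 9 to 1 as deposited, RAD001 in kidney and liver was 25 in place of 15 with upper quartile, and age in kidney and liver was 6 with upper quartile and 1 with the replicate block in place of 0.

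With 1 library left out in turn, kidney counts ranged from 41 to 49 (age, risen), 11 to 14 and 18 to 22 (RAD001, risen and fallen) and 6 to 8 (RAD001 against young, fallen). Liver counts ranged from 9 to 21 (age), 2 to 9 (RAD001, risen), 30 to 40 and 0 to 1 (against young). Gastrocnemius counts ranged from 38 to 50 and 1 to 2 (age), 1 to 6 (RAD001, fallen), 17 to 32 and 2 to 3 (against young).

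Between groups of a tissue the replicate numbers did not pair the libraries: over all loci the median correlation of same-numbered libraries ran from -0.06 to 0.12, and the lowest was under 0.1 in each case. Between tissues of a group it ran from 0.04 to 0.17, against -0.03 to -0.01 for other numbers, and every same-numbered pair was above 0.1 in kidney and liver under RAD001 (lowest 0.11) and in no other of these comparisons. At most 4 libraries of a group correlated best with their own number. With the number as a block no count within a tissue moved by over 1.5 times. It moved the log2 ratio of Rpl22l1 to Rpl22 in gastrocnemius to an adjusted p of 0.0475 with age (-0.20) and 0.0501 under RAD001 (-0.22). The change in the log2 ratio of Rps27l to Rps27 in liver under RAD001 turned sign, from -0.016 to 0.0091, and stayed uncalled. Without 1 library these 3 ratios ran from -0.23 to -0.17, -0.26 to -0.18 and -0.051 to 0.015, and that of Rpl22l1 to Rpl22 in kidney under RAD001 from 0.17 to 0.28.

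Of the members given by name, 2044 of 2201 values under other settings kept their direction and side of the threshold, 78 lost and 49 gained the call and 30 turned sign. With 1 library left out these were 3720, 76, 45 and 23 of 3864. The values that turned sign were, for RAD001 in kidney, Rps27l -0.0059 and Rps6 -0.021 with upper quartile, Rps6 -0.0026 as deposited, Rpl10 0.0030 with the replicate block, Rpl22l1 0.084 and Rps6 -0.0025 with 7SL, and Rps27l -0.13, Rps6 -0.061, Rplp2 0.19 and Rpl41 0.079 with Rn45s. For RAD001 in liver they were Rpl3 0.0037 with upper quartile, Rpl13a -0.021 as deposited, Rpl5 0.012 and Rps27a 0.055 with 7SL, and Rps27 -0.020, Rpsa -0.013, Rpl5 0.019 and Rps27a 0.095 with Rn45s. In gastrocnemius as deposited they were Rplp1 0.028 and Rpl22l1 0.11 with age and Rpl3l -0.045, Rpl22 -0.068, Rpl13a -0.013 and Rps4x -0.011 under RAD001, where Rpl22 was -0.0013 with the block, Rps27 0.010 and Rplp2 0.0093 with 7SL, Rpl22 -0.019 and Rps4x -0.043 with Rn45s, and Rplp2 0.0015 with repeated loci summed. With 1 library left out, kidney Rpl10 ran from -0.033 to 0.012 under RAD001, liver Rps27a from -0.0015 to 0.13 with age, and liver Rps27l from -0.00077 to 0.092 and Rpl13a from -0.013 to 0.048 under RAD001. In gastrocnemius Rpl13a ran from -0.0036 to 0.064 with age, and under RAD001 Rpl3l ran from -0.020 to 0.075, Rpl22 from -0.037 to 0.037, Rps27 from -0.043 to 0.0021 and Rpl39 from -0.11 to 0.00085. All members that turned sign but Rplp1 in gastrocnemius with age were uncalled.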
